A study of Homo sapiens with 6 samples.

Results

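The Krüppel-like factor genes are described here in LS180, an established cell line from a human colorectal adenocarcinoma, after siRNA against CTNNB1, MYC or the long non-coding RNA MYU. Members were taken by gene symbol: KLF2, KLF3, KLF4, KLF5, KLF6, KLF7, KLF9, KLF10, KLF11 and KLF13, which made 10 of the 14812 genes named on the array. Each member had 1 probe set. The CTNNB1 siRNA targets beta-catenin, the effector of Wnt signalling that is kept active in most colorectal tumours, and the MYC siRNA targets a transcription factor that Wnt signalling drives. The MYU siRNA targets the RNA listed as VPS9D1-AS1. Each knockdown was 1 Affymetrix array and had 1 array of cells given a control siRNA and named for that knockdown, so that 6 arrays made 3 pairs. The controls of the CTNNB1 and MYC knockdowns are titled with number 1 and that of the MYU knockdown with number 2, and the labels do not say what the number stands for. All groups were the same cell line with total RNA as the material, and no other genotype or agent is given in the labels. Time after transfection, siRNA dose and the number of siRNAs per target are not stated in the labels.

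Krüppel-like factors are DNA-binding proteins that end in C2H2 zinc fingers and recognise GC-rich and CACCC sequences, as do the related SP proteins. They fall into subgroups by their partners: KLF1, KLF2, KLF4, KLF5, KLF6 and KLF7 mostly activate transcription, KLF3, KLF8 and KLF12 recruit the corepressor CtBP, and KLF9, KLF10, KLF11, KLF13, KLF14 and KLF16 recruit Sin3 complexes. In the intestine KLF5 is known from proliferating crypt cells, KLF4 from non-dividing differentiated cells of the villus or surface, and KLF6 as a widely expressed gene with growth-restraining roles. These roles are background and were not measured here.

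The sequences before the start sites show which binding motifs lie next to some of these genes. They are RefSeq sequences of GRCh38.p14, in which 8 of the 10 genes matched, all but KLF3 and KLF10. Each covers the 250 bases before the annotated start, 5′ to 3′ on the gene's own strand. Printed are the windows of the members highest with CTNNB1 siRNA, KLF6 (chr10:3785210-3785459, minus strand) and KLF2 (chr19:16324576-16324825, plus strand), and of KLF4 (chr9:107489770-107490019, minus strand). Capitals mark any of 4 motifs searched on both strands: CACCC, the GC box GGGCGG, the E-box CACGTG and the core CTTTGA of sites bound by TCF factors, the DNA-binding partners of beta-catenin. Matches may overlap or adjoin, as the GC boxes at the 5′ end of the KLF2 window do.
KLF6: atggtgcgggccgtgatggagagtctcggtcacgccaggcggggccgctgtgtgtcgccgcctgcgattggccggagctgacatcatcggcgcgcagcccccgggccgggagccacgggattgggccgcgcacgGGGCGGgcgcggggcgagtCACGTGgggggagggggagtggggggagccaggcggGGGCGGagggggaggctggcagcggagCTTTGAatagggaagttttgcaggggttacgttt
KLF2: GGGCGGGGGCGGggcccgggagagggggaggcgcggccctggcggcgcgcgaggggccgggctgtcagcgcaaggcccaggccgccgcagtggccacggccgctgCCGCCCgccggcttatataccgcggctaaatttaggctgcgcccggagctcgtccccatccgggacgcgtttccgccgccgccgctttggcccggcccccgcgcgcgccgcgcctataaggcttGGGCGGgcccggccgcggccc
KLF4: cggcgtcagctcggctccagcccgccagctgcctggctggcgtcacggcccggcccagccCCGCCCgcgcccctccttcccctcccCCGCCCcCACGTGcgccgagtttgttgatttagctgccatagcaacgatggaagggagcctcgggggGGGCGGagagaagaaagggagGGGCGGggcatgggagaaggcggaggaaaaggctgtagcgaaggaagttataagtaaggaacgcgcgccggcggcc

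GC boxes were present in 5 of the 8 windows, with 4 matches each in KLF2 and KLF4 and 2 in KLF6, against 42.3% of 27305 RefSeq windows of the same length with at least 1 match. CACCC was found in 3 of 8, against 53.7% of all windows. CTTTGA was found in KLF6 alone among the 8, against 11.4% of all. The E-box CACGTG, which MYC and its relatives bind, was in 3 of 8 windows, those of KLF4, KLF6 and KLF11, against 6.49% of all windows. All windows were counted whatever their GC content, which was 69.2% in KLF4, 72.4% in KLF6 and 78.8% in KLF11. In the windows without a GC box it was 32.4% (KLF9), 40.8% (KLF5) and 58% (KLF7). Only 1 annotated start per gene was used. The E-box is printed in capitals with 12 bases on either side, at chr9:107489909-107489938 for KLF4 (minus strand), chr10:3785289-3785318 for KLF6 (minus strand) and chr2:10043635-10043664 for KLF11 (plus strand). A match is a string of letters and not a measured binding site.
KLF4: ctcccccgccccCACGTGcgccgagtttgt
KLF6: cgcggggcgagtCACGTGgggggaggggga
KLF11: ccgcccgcagccCACGTGcggccgctgctg

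The deposited values had been centred within each pair, so the arrays of a pair carry the same number with opposite signs and only their difference is left. Every value below is a difference on the log2 scale, siRNA minus its own control, unless a centred value is named. No level of any gene remains, so levels of epithelial markers, which would check the cell line, were not analysed here. With 1 array on either side there is no replicate check and no p-value, and "higher" and "lower" describe these arrays. The arrays were made from bulk RNA, in which fewer cells of a type and less RNA per cell cannot be told apart. A yardstick of noise was taken from 124 genes of tissue-restricted families, such as the hair keratin-associated proteins, whose differences had standard deviations of 0.14 (CTNNB1 pair), 0.11 (MYC pair) and 0.11 (MYU pair). It covers genes at low level, not well expressed ones. Of the targeted transcripts, MYC had a difference of -1.18 with its own siRNA and -2.38 with CTNNB1 siRNA, and VPS9D1-AS1 had -0.50 (MYU pair), -0.53 (CTNNB1 pair) and -0.24 (MYC pair). The CTNNB1 transcript was not analysed here, and the treatment tag of its array names CTNNB2 where the title names CTNNB1.

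With CTNNB1 siRNA the members of the activator subgroup were all above their control, KLF6 and KLF2 by the most. KLF6 had a centred value of -1.12 in the control array and 1.12 in the siRNA array, a difference of 2.23 or 4.70-fold. That placed it at rank 39 from the top of 14812 genes. KLF2, known for holding endothelial and T cells in quiescence, had centred values of -0.86 and 0.86, a difference of 1.73 or 3.31-fold, at rank 104. KLF4 was higher by 0.85 (1.80-fold) and KLF5 by 0.62 (1.54-fold), at percentiles 96.2 and 94.2 of all genes. KLF7, best known from neurons, had a difference of 0.26, which lies within 2 standard deviations of the yardstick. The crypt gene KLF5 therefore stood on the same side of its control as the differentiation gene KLF4, and as KLF6.

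**Figure D1:**
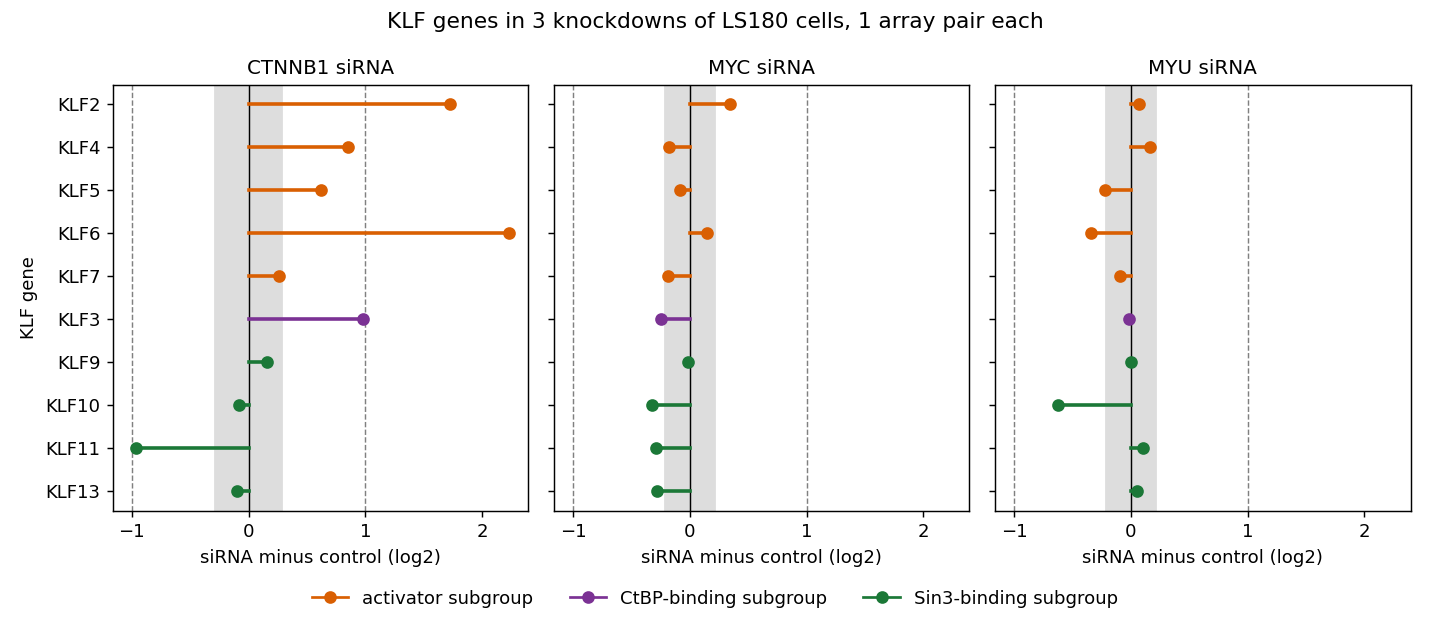
Differences of the 10 KLF genes in each pair (x axis: siRNA minus control, log2; y axis: gene, coloured by subgroup). Each dot is 1 pair of arrays, the grey band is 2 standard deviations of the noise yardstick on either side of 0, and dashed lines mark 2-fold. KLF6 (2.23) and KLF2 (1.73) lie beyond 2-fold with CTNNB1 siRNA, and no gene does so with MYC or MYU siRNA.

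KLF3, a repressor that recruits CtBP, was also higher with CTNNB1 siRNA. Its centred values were -0.49 and 0.49, a difference of 0.98 or 1.97-fold, just short of the 2-fold limit. Of the Sin3-binding members KLF11 was lower by nearly the same size, with centred values of 0.48 in the control and -0.48 in the siRNA array and a difference of -0.97 (1.96-fold). KLF11 and KLF10 are both named for early induction by TGF-beta, yet KLF10 had a difference of only -0.09. KLF13 (-0.10) and KLF9 (0.16), a gene induced by thyroid hormone and glucocorticoids, also lay within 2 standard deviations of the yardstick.

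Counted over the 10 members with CTNNB1 siRNA, 2 were at least 2-fold higher, against 2.80% of all genes, and 0 were 2-fold lower, against 4.14%. At 1.5-fold 5 were higher, against 6.44% of all genes, and 1 was lower, against 9.80%. The members were chosen with earlier results of these data known, so these counts are a description. Of the 7 KLF genes outside the 10, 0 were 1.5-fold higher and 0 were 1.5-fold lower in this pair. The members' median was 0.44 and that of all genes 0. By subgroup the median was 0.85 for 5 activator members, with 5 above 0, and -0.09 for 4 Sin3-binding members, with 3 below 0. Of these 3, KLF10 and KLF13 lay within 2 standard deviations of the yardstick. Among all 14812 genes 7240 were above 0 and 7236 below. The subgroups were assigned with the values known, so this split is a description.

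**Figure D2:**
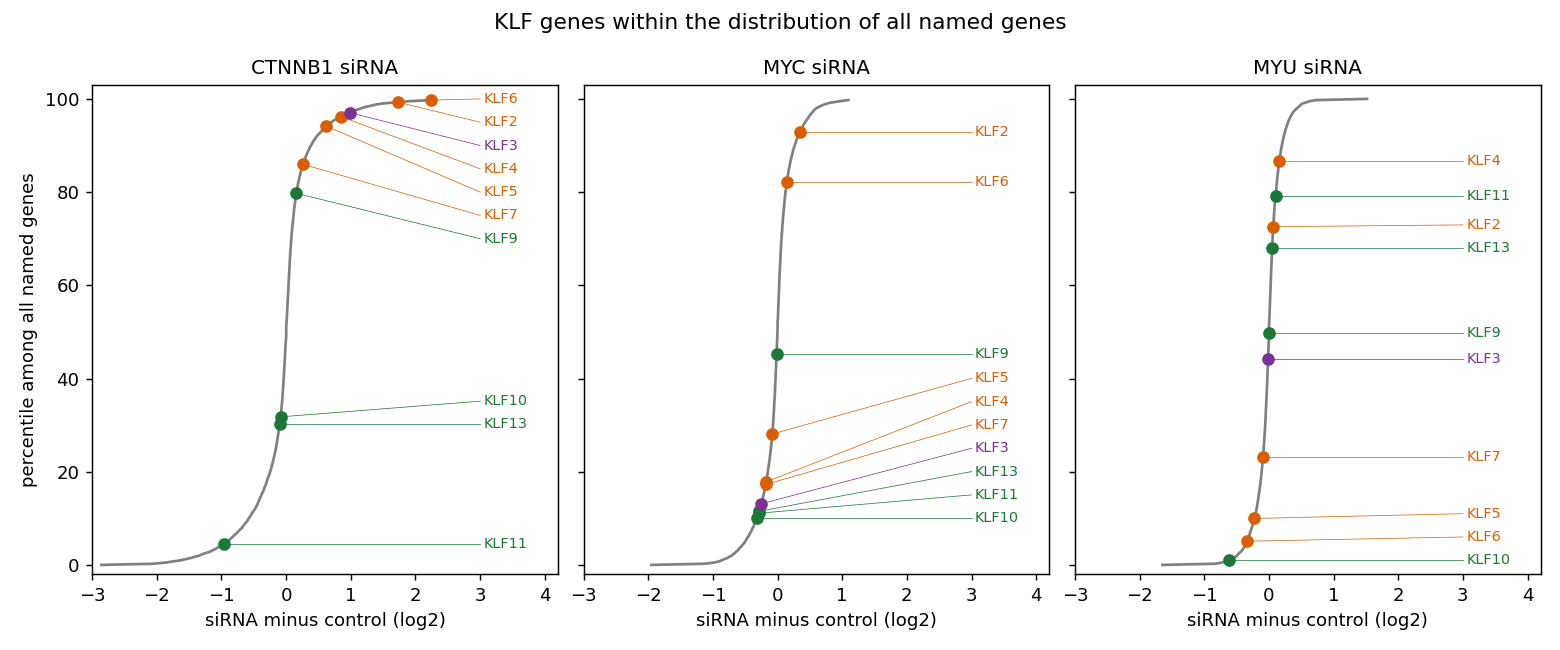
Position of the 10 KLF genes (dots, coloured by subgroup as in the plot of differences) on the cumulative curve of all 14812 named genes (x axis: siRNA minus control, log2; y axis: percentile among all named genes). The curve is drawn up to a difference of 2.5. With CTNNB1 siRNA KLF6, KLF2, KLF3, KLF4 and KLF5 lie above percentile 94 and KLF11 at percentile 4.42.

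With MYC siRNA the 10 members stood close to their controls, while KLF16, outside the 10, had -0.83. KLF2 was the highest member at 0.34 (1.27-fold), and KLF6 followed at 0.14. The other 8 were below 0, against 7312 of all 14812 genes, and by small amounts. KLF10 had the lowest value, -0.32, followed by KLF11 at -0.29, KLF13 at -0.28 and KLF3 at -0.25. These 4 and KLF2 lay beyond 2 standard deviations of the yardstick, as did 4094 of all 14812 genes. KLF7 (-0.18), KLF4 (-0.18), KLF5 (-0.08) and KLF9 (-0.02) lay within it. Of the 10 members 0 were 2-fold higher, against 0.412% of all genes, and 0 were 2-fold lower, against 0.446%. None reached 1.5-fold either, against 2.15% of all genes higher and 3.63% lower, and the median was -0.18.

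The E-box holders showed no common value in this pair: KLF6 had a difference of 0.14, KLF4 of -0.18 and KLF11 of -0.29. In the CTNNB1 pair, in which MYC was also lower, the same genes had 2.23, 0.85 and -0.97. It is not known whether a single hybridisation served as control number 1 for both knockdowns. Values of these pairs are therefore set side by side and not compared by a test.

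With MYU siRNA KLF10 was the member farthest from its control. Its centred values were 0.31 in the control array and -0.31 in the siRNA array, a difference of -0.62 or 1.54-fold, at percentile 0.996 of all genes. KLF6 was lower by a smaller amount, -0.34 (1.27-fold, percentile 5.09), and KLF5 had -0.22. KLF4 (0.16), KLF11 (0.10), KLF2 (0.07) and KLF13 (0.05) were above 0 but within 2 standard deviations of the yardstick. So were KLF7 (-0.09) and KLF3 (-0.01) below 0, and KLF9 had a difference of exactly 0. Of the 10 members 0 were 2-fold higher, against 0.0608% of all genes, and 0 lower, against 0.0945%. At 1.5-fold 0 were higher, against 0.668% of all genes, while KLF10 was lower, against 1.21%.

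Values of the members spread most in the CTNNB1 pair. From KLF11 to KLF6 they spanned 3.20, with a standard deviation of 0.93 over the 10 genes, against 0.51 over all named genes. In the MYC pair the span was 0.67 and the standard deviation 0.22, against 0.28 over all genes. In the MYU pair these were 0.78 and 0.24, against 0.20. The 10 members thus spread more widely than all genes with CTNNB1 siRNA and about as widely with the others. For the 7 KLF genes outside the 10, the standard deviations were 0.11, 0.33 and 0.13 with CTNNB1, MYC and MYU siRNA. The wide spread with CTNNB1 siRNA therefore belongs to the 10 members, which were chosen with earlier results known, and not to the other 7.

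KLF5, KLF4 and KLF6 were also set against each other within each pair. The difference of KLF4 exceeded that of KLF5 by 0.22 with CTNNB1 siRNA and by 0.38 with MYU siRNA, and with MYC siRNA the gap was -0.10. For KLF6 against KLF5 the gap was 1.61 with CTNNB1, 0.22 with MYC and -0.12 with MYU siRNA. KLF6 stood apart from both others in the CTNNB1 pair, while the gap between KLF4 and KLF5 there was under 2 standard deviations of the yardstick. With MYU siRNA KLF4 lay above its control and both KLF5 and KLF6 below theirs. None of these gaps has a replicate.

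Of the family's genes outside the 10, KLF1, KLF8, KLF12, KLF14, KLF15, KLF16 and KLF17 had a probe set. KLF16, a Sin3-binding relative of KLF13, was the farthest of these 7 from its control, at -0.83 (1.78-fold lower) with MYC siRNA and percentile 1.16 of all genes. The same gene had 0.33 with MYU and -0.09 with CTNNB1 siRNA. In the CTNNB1 pair the 7 lay between -0.28 (KLF15, a metabolic regulator of liver and muscle) and 0.05 (KLF14), and their median was -0.03. KLF1 (0.01), the erythroid founder of the family, KLF8 (0.05), KLF12 (-0.05) and KLF17 (-0.03) had values near 0. KLF3-AS1, a non-coding RNA named after KLF3 and picked out after its values were seen, had 0.03, -0.03 and -0.02 with CTNNB1, MYC and MYU siRNA, against 0.98 for KLF3 itself in the first.

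The SP genes bind the same GC boxes and were measured in 9 of 9 cases. SP4, which is enriched in neurons, was below 0 in each pair, at -1.33 with CTNNB1, -0.47 with MYC and -0.79 with MYU siRNA. It was the only SP gene 2-fold apart in any pair. With CTNNB1 siRNA 4.14% of all genes were 2-fold lower. SP1, the ubiquitous member, had 0.33, -0.40 and -0.01, SP2 had 0.48, -0.05 and 0.04, and SP3 had -0.43, 0.11 and -0.07. SP7 had 0.23 with CTNNB1 siRNA, SP6 had -0.25 with MYC siRNA and SP8 had -0.24 with MYU siRNA. SP5, a known Wnt target in other settings, had -0.01 with CTNNB1 siRNA, and SP9 had 0.06. Medians of the SP genes were 0.06 with CTNNB1 siRNA, -0.05 with MYC siRNA and -0.01 with MYU siRNA.

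**Figure D3:**
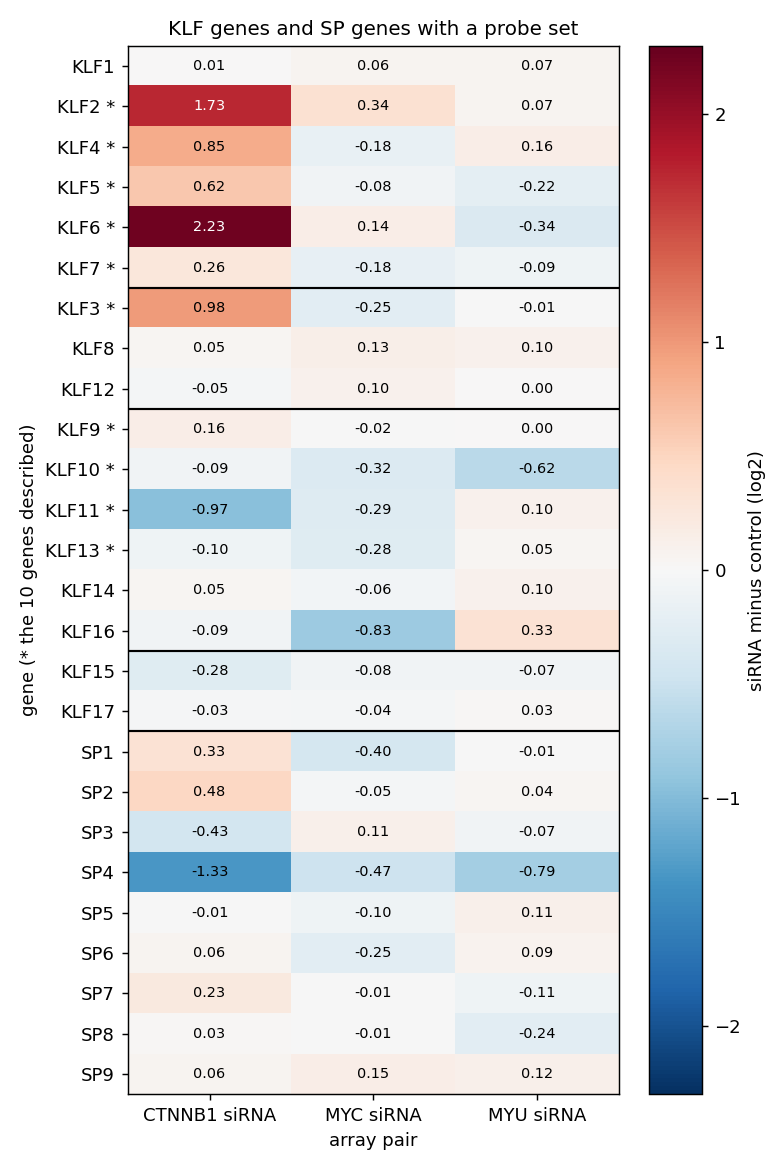
Differences (colour and printed number, siRNA minus control, log2) of 17 KLF genes and 9 SP genes (rows, divided by subgroup; * marks the 10 genes described) in the 3 pairs (columns). KLF6 at 2.23 and SP4 at -1.33 are the extremes, both with CTNNB1 siRNA.

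Genes upstream of the family and partners of its proteins were examined as lists. Of 12 cofactors measured, 0 were 2-fold apart in any pair, and the medians were -0.02, -0.09 and 0.01 with CTNNB1, MYC and MYU siRNA. Among all genes 2.80% were 2-fold higher and 4.14% 2-fold lower with CTNNB1 siRNA. SIN3A, the scaffold that KLF9, KLF10 and KLF11 recruit, had -0.81 with CTNNB1 siRNA, and FHL3, a partner of KLF3, had -0.63. The acetyltransferase gene KAT2B had 0.44 and the corepressor gene RCOR1 0.37. Ubiquitin ligases that act on these proteins were above 0 in 6 of 6 cases with CTNNB1 siRNA, at a median of 0.38, although 0 were 2-fold apart. Of all 14812 genes 7240 were above 0 in that pair. With MYC siRNA 2 of the 6 were above 0 and 4 below, at a median of -0.22, against 7104 of all genes above 0 and 7312 below. In the CTNNB1 pair SMURF1 had 0.90, ITCH 0.53 and FBXO32 0.43. WWP1, a ligase for KLF5, stood at 0.10 in the CTNNB1 pair and at -0.60 in the MYC pair.

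The TGF-beta list, relevant to KLF10 and KLF11, had 8 of 13 genes measured and 0 of them 2-fold apart in any pair. SMAD3, a transducer of the signal, had 0.75 with CTNNB1 siRNA. The feedback repressor SKIL had -0.49 in that pair and -0.59 with MYU siRNA, the pair in which KLF10 was lowest. TGIF1 had -0.54 with CTNNB1 siRNA, and SKI had -0.54 with MYC siRNA. In the MYU pair the list had a median of -0.04, with 3 genes above 0 and 5 below, against 7212 and 7149 of all genes. The highest of the list there was SMAD7, at 0.33. Of 7 genes of the ERK5 and MEF2 pathway, which induces KLF2 and KLF4 in endothelium, 1 was 2-fold higher with CTNNB1 siRNA. This was MEF2D at 1.25, against 2.80% of all genes 2-fold higher, and the list's median there was 0.07. MEF2A had 0.40 and MAP3K3 -0.41 in that pair, while MAP3K2 had -0.92 with MYC and -0.61 with MYU siRNA.

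Several family members respond to serum as immediate early genes do, so 12 such genes were followed. With CTNNB1 siRNA 1 of the 12 was 2-fold higher, against 2.80% of all genes. This was the phosphatase gene DUSP1, at 1.74, a value close to that of KLF2. JUN (0.82) and JUNB (0.74) were above 1.5-fold, SRF had -0.05, and the median of the 12 was 0.15, or 0.03 when each gene was given by its probe set nearest to 0. With MYC siRNA 0 of 12 were 2-fold apart and the median was -0.14, or -0.07 with the nearest probe set, with SRF at -0.57. Of 5 steroid-inducible genes measured beside KLF9, DUSP1 was again the only one 2-fold apart, and FKBP5 (-0.30), PER1 (-0.33) and SGK1 (0.09) were not.

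The values of KLF4 and KLF5 were set beside genes of differentiated epithelium and of proliferating crypts. Of 8 differentiation genes measured with CTNNB1 siRNA, 5 were 2-fold higher, against 2.80% of all genes, and 0 lower, with a median of 1.47. They were led by the keratin gene KRT20 at 4.39 and the adhesion gene CEACAM1 at 3.40, followed by KRT19 (2.09), the trefoil peptide gene TFF3 (1.89) and the microvillus gene VIL1 (1.06). The other 3 lay within 1.5-fold: the homeobox genes CDX1 (0.30) and CDX2 (-0.42), and GFI1 (-0.01). Of 12 crypt and proliferation genes 5 were 2-fold lower, against 4.14% of all genes, and 0 were 2-fold higher, at a median of -0.77. The 5 were MYC, the stem cell receptor gene LGR5 (-2.09), CDK1 (-1.96), MKI67 (-1.86) and the cyclin gene CCNB1 (-1.77). On the other side of 0 in this list were FGFBP1 (0.93), the growth factor gene PDGFA (0.80) and EGFR (0.36), while BIRC5 (-0.82), ASCL2 (-0.73), CCND1 (-0.10) and SOX9 (-0.09) were below it by less than 2-fold. KLF5 at 0.62 was on the side of 3 of the 12 crypt genes and of 6 of the 8 differentiation genes, as were KLF4 and KLF6. That side, above 0, held 7240 of all 14812 genes in this pair. With MYC siRNA the medians were 0.25 and -0.44, and with MYU siRNA 0.06 and -0.21. KRT20 had 1.16 with MYC siRNA and -0.73 with MYU siRNA. The lists were chosen with earlier results of these data known, so their directions are not independent evidence.

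**Figure D4:**
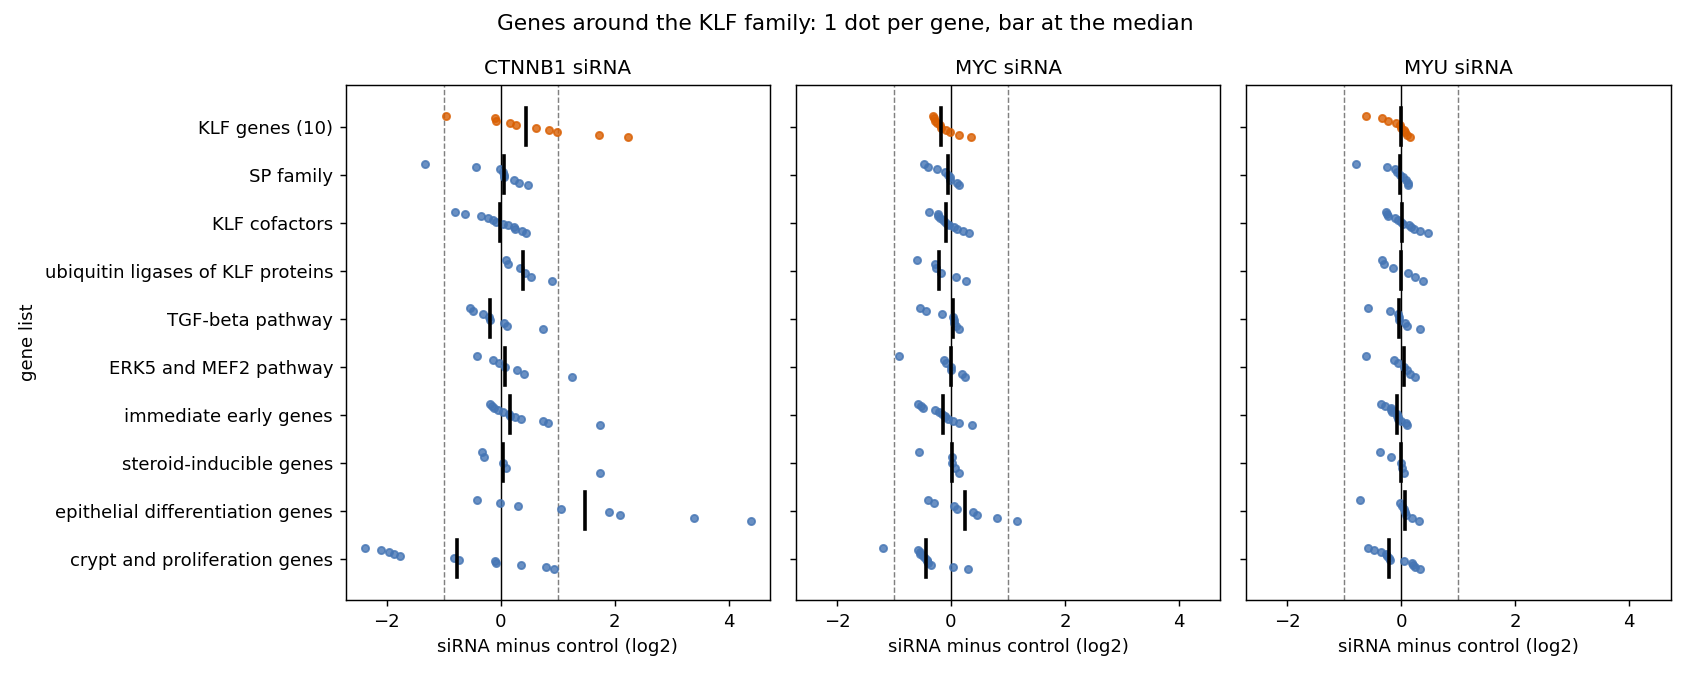
Differences (x axis: siRNA minus control, log2) of single genes (dots) and their medians (black bars) for the 10 KLF genes and 9 lists (y axis) in the 3 pairs; dashed lines mark 2-fold. With CTNNB1 siRNA the median of the KLF genes (0.44) lies between those of the differentiation list (1.47) and the crypt list (-0.77).

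The genes with the most similar values were found by Euclidean distance over the 3 differences among 11910 other protein-coding genes. Nearest to KLF4 were the tight junction gene CLDN3 (0.88, -0.18 and 0.13 with CTNNB1, MYC and MYU siRNA), at a distance of 0.05, then TICAM1, MOSPD2, PHACTR2 and MAST3. Nearest to KLF5 were SH3RF2 (0.59, -0.08 and -0.28), at 0.06, then DUSP14, ARID3B, SH3PXD2A and ZNF575. KLF6 had no neighbour so close: the GTPase gene RRAS (2.14, 0.23 and -0.46) lay at 0.17, then came ADGRF1, CAPN8, LYST and VILL, the last at 0.41. Few genes have a difference as large as that of KLF6, so its neighbours are farther apart. A likeness over 3 numbers is weak, and pairs may share a control.

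Markers of other cells were given beside the family because KLF2 is typical of endothelium and leukocytes. Of 5 endothelial markers 2 were measured, KDR and VWF, at 0.04 and 0.02 with CTNNB1 siRNA. Of 8 leukocyte markers CD14 (-0.03) and LYZ (-0.23) were measured, and of 8 fibroblast markers DCN (0.01), LUM (2.78) and THY1 (-0.04). LUM was thus higher together with KLF2 and KLF6 in this pair while the other 6 markers lay within 1.5-fold, and its part in the result was not tested. With MYU siRNA LYZ, which has 2 probe sets, had 0.74. The median of the 2 leukocyte markers there went from 0.40 to 0.10 with the probe set nearest to 0. Of 7 epithelial markers measured 3 were 2-fold higher with CTNNB1 siRNA, against 2.80% of all genes. They were KRT20, KRT19 and VIL1, already counted in the differentiation list. EPCAM had 0.62 and CDX2 -0.42. Levels of all these markers, and so which of them were at background, were not analysed here.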

How the data were processed

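RNA of 6 LS180 samples was extracted with TRIsure and measured on Affymetrix arrays with a biotin label, per the labels' protocols. How background, normalization and probe summaries were handled is not given in the sources used. The authors deposited log2 values for 44629 probe sets, centred within each pair of arrays: in the file the values of a pair sum to 0 within 1e-06. Base 2 was assumed from the values.

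The knockdown value minus the control value was taken per probe set, and probe sets of a gene were averaged. The platform annotation names 15835 probe sets with 1 symbol and 0 with several, and 28794 are unnamed. All 15835 identifiers matched the GRCh38.p14 gene table, giving 14812 genes. Genes were counted at 2-fold, with 1.5-fold as an alternative. Other alternatives were the probe set nearest to or farthest from 0 and centring on each pair's median. No test was possible with 1 array a group, and the number of arrays limits the precision.

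The members, the 14 lists and the subgroups were chosen with earlier results of these data known. The text names all KLF and SP genes with a probe set, the targets, up to 4 genes per list with the largest difference, and the 5 nearest protein-coding genes of KLF4, KLF5 and KLF6. The differentiation and crypt lists were named in full, beyond this rule. KLF3-AS1 and SMAD7 were also named outside it, after their values were seen. The planned noise yardstick, olfactory and taste receptors, had 1 named gene and was replaced by the families KRTAP, LCE, PRAMEF, TAAR and VN1R, chosen after seeing the data. The calculations were tested on simulated data without noise, in which all planted differences were beyond 2-fold. That checks the arithmetic and not how noise affects the counts. Python 3.11.15, numpy 2.4.6, pandas 2.3.3 and matplotlib 3.10.9 were used.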

Additional observations from a re-analysis of the deposited data

How the results depend on the processing

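Centring each pair on its median moved no value of the 10 genes by more than 0.00773, and the choice of probe set changed nothing for them, since each has 1. At 1.5-fold in place of 2-fold, the members higher with CTNNB1 siRNA went from 2 to 5 and the lower ones from 0 to 1 (KLF11). With MYU siRNA the lower members went from 0 to 1 (KLF10). Over the 95 genes of 14 lists, higher ones with CTNNB1 siRNA went from 8 to 16 and lower ones from 6 to 10. With MYC siRNA they went from 1 to 2 and from 1 to 5, and with MYU siRNA from 0 to 1 and from 0 to 5. At 1.5-fold 6.44% of all genes were higher and 9.80% lower with CTNNB1 siRNA. The shares were 2.15% and 3.63% with MYC siRNA, and 0.668% and 1.21% with MYU siRNA. Of the list medians, that of the leukocyte markers with MYU siRNA went from 0.40 to 0.10 with the probe set nearest to 0, that of the immediate early genes from 0.15 to 0.03 with CTNNB1 and from -0.14 to -0.07 with MYC siRNA, and that of the cofactors from -0.09 to -0.05 with MYC siRNA. Only the leukocyte median moved by more than the yardstick, and all other list medians moved by less. With the 84 KRTAP genes alone the yardstick was 0.12 (CTNNB1 pair), 0.10 (MYC pair) and 0.10 (MYU pair). Leaving out an array could not be run, because it removes the whole pair. No paired analysis was possible because each group has 1 array and each difference is already taken within its pair.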

Other observations

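The rounding of the deposited numbers differed between members. All 6 values of KLF5 were whole multiples of the coarser of the rounding steps in the table (within 0.05 of a step), as in 2002 of all 44629 probe sets and in 1 of the 130 probe sets of the tissue-restricted families. The other 9 members had at least 1 value on a finer step. Single-precision numbers have coarser steps at higher levels, but whether the step marks a higher level of KLF5 was not tested.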
